A study of Zea mays and Oryza sativa with 119 samples.

Results

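In young rice leaves, the piece numbered 10 from the third leaf was compared with the piece numbered 8, with piece 9 lying between them. The comparison rests on 8 of the 119 samples of the series, 4 libraries for each section, chosen by their labels. It covers 15489 of the 55986 genes in the rice table, those with a mean of at least 1 FPKM over the 8 libraries. FPKM is the number of fragments of a transcript scaled by its length and by the mapped fragments of the library, so that levels of different genes can be set side by side per length.

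All 8 libraries came from the rice cultivar Nipponbare, a wild-type japonica line, grown for 14 days with no treatment named in the labels. The third leaf was cut into 11 sections of 2 cm, and each of the 4 replicates was a pool that held 15 plants on average. The same pool gave every section of its replicate number, so sections 8 and 10 are matched within 4 pools. The labels number the sections without saying which end of the leaf number 1 is. The wider study set rice beside maize to follow how C4 photosynthesis differentiates along a leaf; rice fixes carbon by the C3 route.

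A grass leaf grows from a zone of dividing cells at its base, and cells mature as they move toward the tip, which is therefore the oldest part of the blade. Maturing cells stop dividing, finish their walls with cellulose and lignin, and build chloroplasts that hold the photosystems, the light-harvesting proteins and the enzymes of the Calvin-Benson cycle. Mature blades export sucrose through the phloem and, later, send nitrogen and minerals to younger organs.

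The markers matched green blade tissue. The FPKM of 7 green leaf markers, among them the Rubisco small subunits and light-harvesting proteins, summed to 183934 to 236919 in section 8 and 79451 to 151180.0 in section 10, against 8699 to 16174 in section 1. The 14 genes of DNA replication and mitosis summed to 4.59 to 10.51 and 6.18 to 15.6, against 39.4 to 100.1 in section 1, and the 5 KNOX genes, which mark meristems, were listed at 0 in all 8 libraries. Of the 3 root markers, the silicon channel gene Lsi1 was measured at 7.07, 8.54, 7.31 and 3.92 FPKM in section 8 and at 10.8, 12.3, 11.0 and 19.1 in section 10, while the silicon exporter gene Lsi2 was at 0 in all 8 libraries. These root markers summed to 3.92 to 9.33 in section 8 and 10.8 to 19.8 in section 10, with no overlap, and none of them passed the test. Of the 4 phloem markers SWEET11 was at 0 in all 8 libraries.

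FPKM holds no read totals, and the depth of a library relative to the others, read from the steps between low values, ran from 0.847 to 0.899 in section 8 and from 0.821 to 1.12 in section 10. Between 6.37% and 7.44% of the tested genes were listed at 0 in a section 8 library, and between 5.23% and 7.61% in a section 10 library. The 3 abundant Rubisco small subunit genes held 14.3% to 16.4% of a library's FPKM sum in section 8 and 7.00% to 11.6% in section 10. Some libraries resembled a neighbouring section more than their own. Each library was correlated across the tested genes with the mean of each section in the other replicates. Section 10 replicate 1 was closest to section 9 (r = 0.918, against 0.916 with its own section). Section 10 replicates 2 and 3 were closest to section 11 (r = 0.945 against 0.932, and 0.925 against 0.921). Section 8 replicate 4 was closest to section 7 (r = 0.924, against 0.920). Outside the comparison, section 9 replicate 2 was closest to section 10 (r = 0.937, against 0.930 with its own section) and section 11 replicate 2 was closest to section 9 (r = 0.934, against 0.914).

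Among the genes that passed the test, more were lower in section 10 than higher. By limma on log2(FPKM + 1), with the spread taken from all 44 rice libraries and p-values adjusted over all tested genes by Benjamini-Hochberg, 290 genes (1.87%) rose and 516 (3.33%) fell at an adjusted p under 0.05, 5.2% together. The median change of all tested genes was 0.02 on the log2 scale, that of the genes that rose was 1.18 and that of the genes that fell was -1.25. A change of at least 1 on that scale was seen in 194 of the genes that rose (1.25% of all tested) and in 386 of those that fell (2.49%), and a change of at least 2 in 35 and 58.

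The direction held in every pool for most of these genes. The genes were called on these same libraries, so the shares below partly follow from the call and only describe it. All 4 pools were higher in section 10 for 269 of the 290 genes that rose (92.8%), and all 4 were lower for 494 of the 516 that fell (95.7%). Among all tested genes 12.8% were higher in all 4 pools and 13.3% lower. The 2 sections did not overlap for 226 of the genes that rose (77.9%) and 423 of those that fell (82.0%), where 4.69% of all tested genes lay wholly above and 5.49% wholly below. In section 8 all 4 libraries were at 0 for 18 of the genes that rose, beside 167 of all tested genes. In section 10 all 4 were at 0 for 12 of those that fell, beside 155 of all tested genes.

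Of the 204 tested genes with a mean of at least 500 FPKM, 17 fell (8.33%) and 5 rose (2.45%). Of the 6560 genes with a mean from 1 to 5 FPKM, 158 fell (2.41%) and 86 rose (1.31%). The number of calls depended on which libraries were in the fit. With only the 8 libraries of the comparison 96 genes rose and 172 fell, and with the pool of plants as a block in the fit to all libraries 446 rose (2.88%) and 774 fell (5%), among them all 290 and all 516. Leaving out replicate 2, 3 or 4 lowered the counts to between 95 and 127 that rose and between 190 and 225 that fell.

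**Figure D1:**
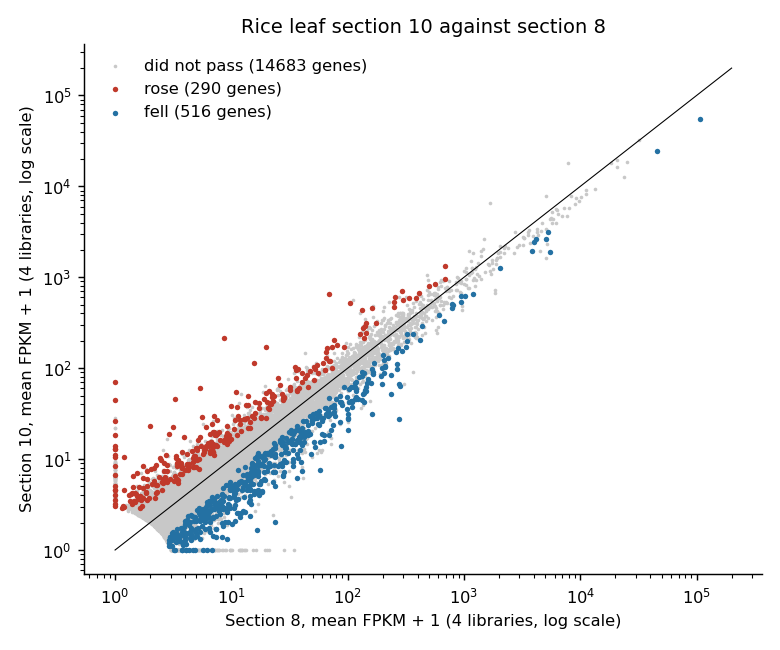
Mean FPKM + 1 of the 15489 tested genes in section 8 (horizontal) and section 10 (vertical), 4 libraries each, both on log scales, with the line of equal levels. Red points are the 290 genes that rose and blue points the 516 that fell, and the blue points reach the highest level on the plot, the Rubisco small subunit gene RbcS2.

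Known rice genes were followed in 37 lists of 416 members, of which 414 were in the table and 306 were tested. Of these 306, 9 rose (2.94%) and 33 fell (10.8%), beside 1.87% and 3.33% of all tested genes. These shares are not a test, since members and lists were chosen with earlier results of these data known. The share that fell was also higher among abundant genes, 8.33% at 500 FPKM or more against 2.41% from 1 to 5. The genes that fell stood mainly in the lists of photosynthesis, starch, cellulose and lignin. Those that rose were 2 regulators of chloroplast development and single members of several other lists. Gene names are those the lists give to the identifiers, from published rice assignments.

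**Figure D2:**
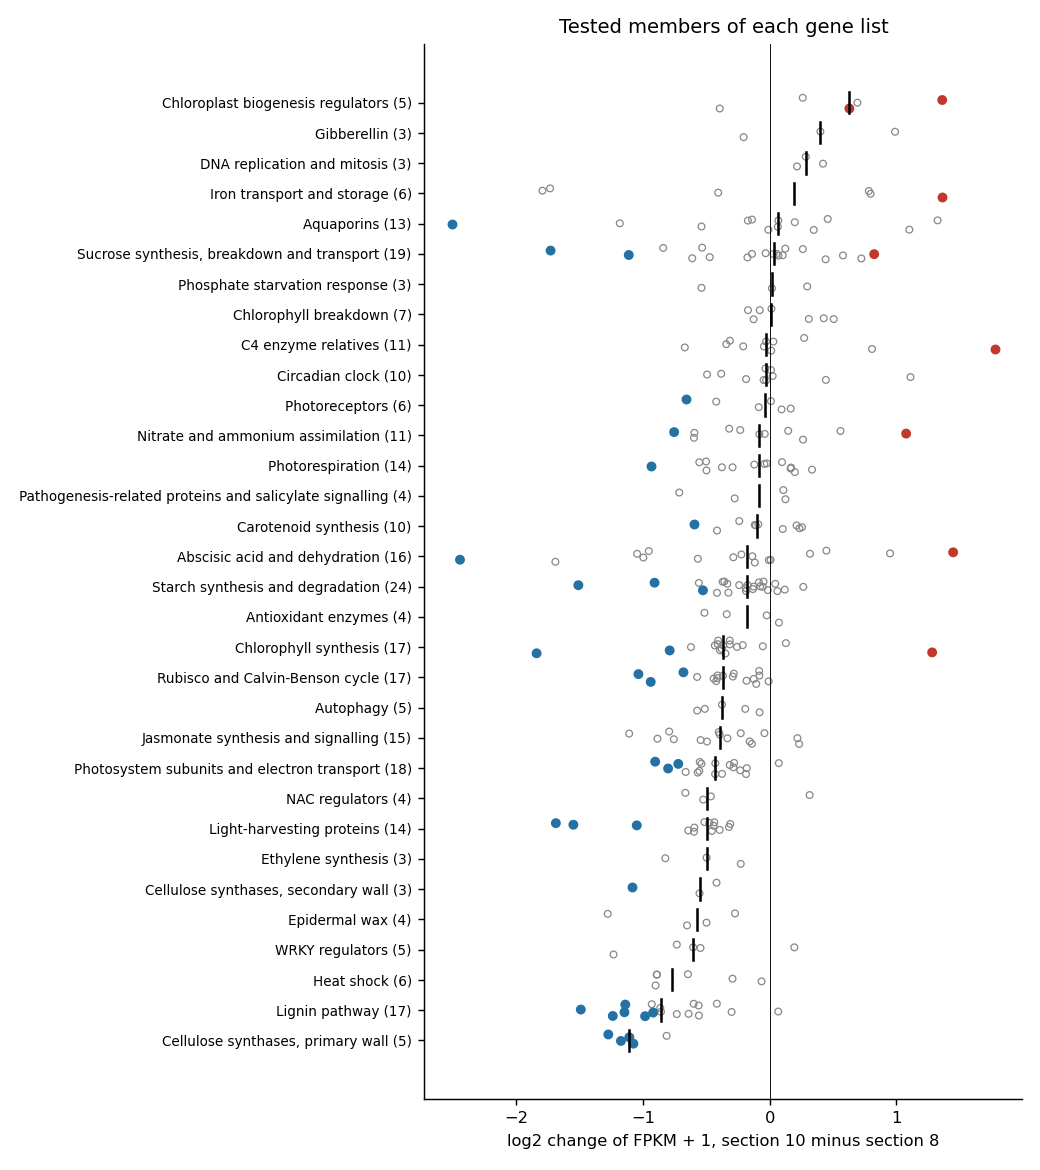
Log2 change of FPKM + 1 from section 8 to section 10 for every tested member of the lists with at least 3 tested members, whose number stands in brackets. Filled points passed (red rose, blue fell), open points did not, and black bars are list medians. The 5 primary wall cellulose synthases lie lowest, with a median of -1.11, and the chloroplast regulators highest, with a median of 0.63. Several photosynthesis members shown as negative were positive with quantile normalization.

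Photosynthesis genes that passed were lower in section 10, most members did not pass, and the direction of several depended on the scaling between libraries. All 17 tested members of the list of Rubisco and the Calvin-Benson cycle had a negative log2 change, with a median of -0.37, but 3 passed and 14 did not. With quantile normalization 9 of the 17 were negative and 7 positive, the median was -0.10 and 0 passed (limma), and with upper quartile scaling 16 were negative and 1 passed. RbcS2, a small subunit of Rubisco, the enzyme that fixes carbon dioxide, was the highest gene of every library here, at 105596, 90730.5, 120941 and 111962 FPKM in section 8 and 71062, 29419, 51219 and 68557 in section 10. Every section 10 library was lower than every section 8 library, and the log2 change was -1.04, SE 0.31 (limma adjusted p = 0.0452). RbcS3, a second copy, stood at 38577, 38816, 54919 and 52014 FPKM in section 8 and 25286, 15502, 28904 and 27938 in section 10, with a change of -0.94, SE 0.25 (limma adjusted p = 0.0239), again with no overlap. Reads shared by the near-identical small subunit genes make the split between them uncertain. The gene cpPGK, plastid phosphoglycerate kinase of the same cycle, stood at 3824, 4286, 4704 and 3956 FPKM and then at 3020.1, 2078, 2620.5 and 2809, a change of -0.68, SE 0.20 (limma adjusted p = 0.0423). The calls of RbcS2, RbcS3 and cpPGK were lost in 10, 9 and 10 of 13 other settings. Quantile normalization set the change of RbcS2 to 0, because it gives the highest gene of every library the same value. It also set RbcS3 to -0.51 and cpPGK to -0.27.

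Most of the Calvin-Benson list did not pass. RCA, Rubisco activase, which keeps Rubisco active, averaged 32062 ± 1707 FPKM in section 8 and 32562 ± 7675 in section 10 (SD, n = 4; limma adjusted p = 0.991). PRK, phosphoribulokinase, which makes the acceptor of carbon dioxide, averaged 5661 ± 496 and 5234 ± 921 FPKM (limma adjusted p = 0.758). Neither passed the test, and RCA had the change nearest to 0 in the list, -0.01, SE 0.21, which was 0.64 with quantile normalization (limma adjusted p = 0.138).

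Light-harvesting proteins bind most of the chlorophyll of the leaf and feed light energy to the photosystems. All 14 were tested, all 14 had a negative log2 change, with a median of -0.50, and 3 fell. With quantile normalization 12 were negative and 2 positive, the median was -0.22 and 2 fell. Lhca6, an antenna protein of photosystem I that in Arabidopsis helps to join it to the NDH complex, stood at 94.5, 89.7, 180.0 and 163 FPKM in section 8 and 42.8, 27.0, 58.0 and 47.4 in section 10. Its highest section 10 library was below the lowest of section 8, and the change of -1.55, SE 0.30 (limma adjusted p = 0.00139) passed in all 13 other settings. Lhcb1.3, a main antenna protein of photosystem II, stood at 6011, 4649, 6950.1 and 4463 FPKM and then at 2884, 765, 1677 and 2168, a change of -1.69, SE 0.39 (limma adjusted p = 0.00636) that was lost in 2 of 13 settings. Lhcb1.1, a close copy that can share reads with it, stood at 4429.8, 4831, 7003 and 3926 FPKM and then at 3689, 1207, 3859.6 and 1864. Its change was -1.05, SE 0.32 (limma adjusted p = 0.0452), lost in 8 of 13 settings, and replicate 2 was the lowest section 10 library of all 3 genes. Lhcb4, the most abundant antenna gene here, stood at 9867, 9849, 11881 and 13309.7 FPKM in section 8 and 6927, 5214, 12591 and 11336 in section 10, which overlapped, and did not pass (limma adjusted p = 0.428).

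Among photosystem subunits and electron carriers 18 of 19 members were tested, 17 had a negative log2 change and 3 fell, with a list median of -0.43. Quantile normalization left 11 negative and 7 positive, a median of -0.05 and 1 that fell. FNR1, the ferredoxin reductase that makes NADPH at the end of the electron chain, stood at 1203, 1223, 1262 and 1117 FPKM in section 8 and 671, 439, 872 and 657 in section 10 (log2 change -0.90, SE 0.25, limma adjusted p = 0.0283). PsaH, a photosystem I subunit at which antenna proteins can dock, stood at 5035, 5112, 5552 and 5556 and then at 3223, 2188, 2959 and 4120.4 FPKM, a change of -0.80, SE 0.21 (limma adjusted p = 0.0178). PsaF, the photosystem I subunit that receives plastocyanin, changed by -0.72, SE 0.20 (limma adjusted p = 0.0258), from a mean of 3992 ± 499 to 2458 ± 535 FPKM (SD, n = 4). In none of these 3 genes did the sections overlap. The 3 calls were lost in 5, 5 and 8 of 13 settings, and quantile normalization set PsaH to -0.34 and PsaF to -0.35. Fd1, leaf ferredoxin and the most abundant gene of the list, averaged 20786 ± 1851 FPKM in section 8 and 16279 ± 3346 in section 10 and did not pass (limma adjusted p = 0.216).

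Photorespiration, which recovers the carbon that Rubisco loses when it takes up oxygen, had 14 tested members with a median change of -0.08, of which 1 fell. That member, GLDH1, the H-protein of the glycine decarboxylase complex, stood at 2624, 2949, 5449 and 4249 FPKM in section 8 and 1856, 1309.7, 2500.3 and 2192 in section 10, without overlap. Its change was -0.94, SE 0.23 (limma adjusted p = 0.0128), lost in 5 of 13 settings and -0.58 with quantile normalization. SHM1, the serine hydroxymethyltransferase that works beside it and the highest member by mean level, averaged 2752 ± 244 and 3158 ± 245 FPKM (SD, n = 4) and did not pass, with a change of 0.20, SE 0.14 (limma adjusted p = 0.464). All 4 pools were higher in section 10, and SHM1 passed with quantile normalization, at 0.72 (limma adjusted p = 0.0349).

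Chlorophyll synthesis had members that changed in both directions. Of 17 genes, all tested, 2 fell and 1 rose, and the median change was -0.37. PORA, a protochlorophyllide oxidoreductase that is known for its role while greening begins, stood at 26.6, 26.3, 37.3 and 19.6 FPKM in section 8 and 8.93, 1.48, 14.4 and 8.55 in section 10. Every section 10 library was lower, replicate 2 most of all, and the change was -1.84, SE 0.48 (limma adjusted p = 0.0178). PORB, the other oxidoreductase, averaged 689 ± 168 FPKM in section 8 and 526 ± 170.5 in section 10 and did not pass (limma adjusted p = 0.328). GSA, the aminotransferase that makes the precursor 5-aminolevulinate, stood at 75.1, 78.2, 81.7 and 76.3 and then at 48.2, 40.4, 48.7 and 41.7 FPKM, a change of -0.79, SE 0.22 (limma adjusted p = 0.0307). The gene listed as YGL1, chlorophyll synthase, which attaches the phytol tail, went the other way, at 1.398, 2.65, 5.54 and 5.36 FPKM in section 8 and 9.93, 11.8, 7.34 and 9.98 in section 10. Its libraries did not overlap between the sections, and the change was 1.28, SE 0.27 (limma adjusted p = 0.00286). Calls of PORA, GSA and YGL1 were lost in 4, 4 and 3 of 13 settings. In section 1 all 3 were higher than in sections 8 and 10, with means of 229 ± 59.2, 338 ± 54.0 and 83.0 ± 11.0 FPKM.

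No gene of chlorophyll breakdown, the route that bleaches ageing leaves, passed the limma test, and 0 of them had an unadjusted p under 0.05, beside 19.0% of all tested genes. All 7 members were tested, and their changes ran from -0.17 to 0.51 with a median of 0.01. SGR, which starts the removal of magnesium from chlorophyll, averaged 4.08 ± 1.298 FPKM in section 8 and 3.68 ± 1.87 in section 10 (limma adjusted p = 0.882). NYC1, a chlorophyll b reductase, averaged 37.5 ± 4.12 and 52.4 ± 14.8 FPKM (limma adjusted p = 0.264), and PAO, the oxygenase that opens the ring, 28.9 ± 4.54 and 36.1 ± 5.21 FPKM (limma adjusted p = 0.546).

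Of 10 carotenoid synthesis genes, all tested, 1 fell. ZEP, zeaxanthin epoxidase, which turns the photoprotective pigment zeaxanthin back to violaxanthin, stood at 340.3, 326, 405 and 383 FPKM in section 8 and 259, 204, 260.0 and 236 in section 10, without overlap. The change was -0.60, SE 0.17 (limma adjusted p = 0.0276), lost in 5 of 13 settings. VDE, the enzyme of the opposite step, averaged 67.3 ± 10.3 and 62.9 ± 13.3 FPKM and did not pass (limma adjusted p = 0.743).

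Among regulators of chloroplast development 5 of 7 members were tested, 2 rose and none fell, with a median change of 0.63. Cga1, a GATA transcription factor that promotes chloroplast development, stood at 5.85, 5.14, 7.39 and 5.84 FPKM in section 8 and 8.94, 16.7, 33.6 and 16.4 in section 10. Each section 10 library was above the highest section 8 library, and the change was 1.36, SE 0.32 (limma adjusted p = 0.00832). GLK2, a GOLDEN2-LIKE factor that switches on genes of the photosynthetic apparatus, stood at 29.8, 39.0, 42.4 and 31.4 FPKM and then at 50.2, 65.2, 51.7 and 54.6, a change of 0.63, SE 0.19 (limma adjusted p = 0.0412). The calls of Cga1 and GLK2 were lost in 4 and 7 of 13 settings. GLK1, its partner, averaged 158 ± 28.9 and 191 ± 42.7 FPKM and did not pass (limma adjusted p = 0.409), nor did SIG1, a plastid sigma factor, at 224, 232, 282 and 228 and 202, 146, 203 and 186 FPKM (limma adjusted p = 0.184).

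Among rice relatives of the C4 enzymes 1 of 11 tested genes changed. PCK1, phosphoenolpyruvate carboxykinase, which turns oxaloacetate into phosphoenolpyruvate, stood at 13.0, 6.71, 12.2 and 8.59 FPKM in section 8 and 38.2, 46.1, 28.1 and 34.6 in section 10. Its lowest section 10 library was above the highest of section 8 by more than the whole range of section 8, and the change of 1.78, SE 0.29 (limma adjusted p = 0.000199) passed in all 13 other settings. PPDKB, pyruvate orthophosphate dikinase, which makes the same product from pyruvate, stood at 263, 328, 240.2 and 312 and then at 212, 162, 174 and 167 FPKM. Those libraries did not overlap, but the change of -0.67, SE 0.25 did not pass (limma adjusted p = 0.125). It passed with the pool of plants as a block (limma adjusted p = 0.0369), but not with the block on the 8 libraries of the comparison alone (limma adjusted p = 0.0952).

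Sucrose genes changed singly, with a list median of 0.03 over 19 tested of 27 members, 2 of which fell and 1 of which rose. SWEET13, a sugar exporter that in grasses feeds the phloem, stood at 17.2, 34.6, 4.96 and 8.22 FPKM in section 8 and 2.18, 3.02, 2.40 and 5.76 in section 10. Both sections overlapped, since section 10 replicate 4 lay above section 8 replicate 3, although each pool was lower in section 10, and the change was -1.73, SE 0.52 (limma adjusted p = 0.044). SWEET4, a hexose carrier of the same family, stood at 31.1, 43.0, 22.5 and 17.1 and then at 12.3, 16.1, 9.52 and 10.4 FPKM, without overlap, a change of -1.11, SE 0.32 (limma adjusted p = 0.0313). SUT1, the carrier that loads sucrose into the phloem, averaged 24.2 ± 3.58 and 13.1 ± 1.69 FPKM and did not pass (limma adjusted p = 0.0546). It passed with the pool as a block (limma adjusted p = 0.026), but not with the block on the 8 libraries alone (limma adjusted p = 0.0956). SUS2, a sucrose synthase, which splits sucrose for use, rose from 6.56, 6.29, 7.67 and 5.65 to 9.14, 18.7, 13.6 and 9.795 FPKM, a change of 0.83, SE 0.25 (limma adjusted p = 0.0449). The calls of SWEET13, SWEET4 and SUS2 were lost in 8, 6 and 6 of 13 settings. The 4 phloem markers, which include SUT1 and SWEET13, summed to 29.9 to 64.8 FPKM in section 8 and 14.3 to 21.8 in section 10, and their part in these results was not tested. In RNA from whole leaf pieces, fewer cells of a type and less RNA in each such cell cannot be told apart.

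Starch genes that changed were lower in section 10. Of 29 members 24 were tested, 3 fell and 21 did not pass, with a median of -0.18. AGPS2 and AGPL3 encode a small and a large subunit of ADP-glucose pyrophosphorylase, the enzyme that commits sugar to starch. AGPS2 stood at 269.8, 327, 388 and 279 FPKM in section 8 and 208, 139, 186 and 141 in section 10, a change of -0.91, SE 0.21 (limma adjusted p = 0.00651). AGPL3 stood at 198, 168, 219 and 215 and then at 142, 105, 154 and 158 FPKM, a change of -0.53, SE 0.16 just inside the threshold (limma adjusted p = 0.05). SSIVa, a starch synthase of the class that starts starch granules, stood at 108, 118, 126 and 80.7 and then at 37.2, 15.8, 63.7 and 48.1 FPKM, a change of -1.51, SE 0.40 (limma adjusted p = 0.0212). No library of section 10 reached section 8 in any of the 3, and the calls were lost in 3, 9 and 5 of 13 settings. GBSSII, the granule-bound starch synthase of leaves, averaged 671 ± 90.8 and 531 ± 63.6 FPKM and did not pass (limma adjusted p = 0.48).

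Nitrogen assimilation had 1 gene that rose and 1 that fell among 11 tested of 15. NiR, nitrite reductase, which turns nitrite to ammonium in the chloroplast, stood at 298, 245, 249 and 211 FPKM in section 8 and 394, 509.8, 561 and 683 in section 10. All 4 section 10 libraries were above section 8, and the change was 1.08, SE 0.24 (limma adjusted p = 0.00577), lost in 4 of 13 settings. ASN2, an asparagine synthetase, which makes the amide used to move nitrogen, stood at 34.1, 30.1, 32.0 and 30 and then at 23.3, 15.5, 16.1 and 19.2 FPKM, a change of -0.75, SE 0.18 (limma adjusted p = 0.00978) lost in 4 settings. GS2, plastid glutamine synthetase, which takes up the ammonium, stood at 4118, 4726, 6128 and 5494 and then at 3248, 2806, 4062 and 3408 FPKM. Its libraries did not overlap, but the change of -0.59, SE 0.19 missed the threshold (limma adjusted p = 0.0612) and passed with the pool as a block (limma adjusted p = 0.0272), but not with the block on the 8 libraries alone (limma adjusted p = 0.0901). With quantile normalization its change was -0.11. NIA1, nitrate reductase, the step before NiR, averaged 23.7 ± 10.3 and 27.4 ± 7.23 FPKM and did not pass (limma adjusted p = 0.754).

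Hd3a, a rice florigen that is made in leaves and moves to the shoot tip to start flowering, was detected in section 10 and not in section 8. It was listed at 0 in all 4 section 8 libraries and stood at 3.39, 18.1, 11.2 and 14.8 FPKM in section 10, and it passed in the fit (limma adjusted p = 1.08e-05) and in all 13 other settings. It was at 0 in all 4 libraries of section 7, at 0, 4.07, 3.01 and 0 FPKM in section 9 and at 18.5, 1.38, 21.0 and 14.7 in section 11, where replicate 2 was the lowest. Of the other 5 members of the daylength list, 1 was tested. This was Ghd7, a repressor of flowering under long days, which averaged 2.78 ± 2.76 FPKM in section 8 and 6.52 ± 4.10 in section 10 and did not pass (limma adjusted p = 0.168).

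No clock gene passed by limma among 10 tested of 13, of which 3 had an unadjusted p under 0.05, beside 19.0% of all tested genes. LHY, a clock gene that peaks around dawn, averaged 1268 ± 95.1 FPKM in section 8 and 1281 ± 148 in section 10 (limma adjusted p = 0.982). GI, the GIGANTEA gene that acts between clock and florigen, stood at 19.3, 17.8, 6.94 and 9.94 FPKM in section 8 and 31.9, 40.7, 16.94 and 28.4 in section 10, a change of 1.11, SE 0.36 that missed the threshold (limma adjusted p = 0.0585) and passed with the pool as a block (limma adjusted p = 0.0102). GI was picked after its value was seen. Of 6 photoreceptor genes 1 fell, the blue light receptor CRY2, from 42.6, 31.3, 42.6 and 44.2 to 28.6, 26.0, 24.9 and 20.3 FPKM, a change of -0.66, SE 0.18 (limma adjusted p = 0.0207) lost in 5 of 13 settings. CRY1b, another blue light receptor, averaged 57.2 ± 4.28 and 61.2 ± 6.27 FPKM (limma adjusted p = 0.828).

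**Figure D3:**
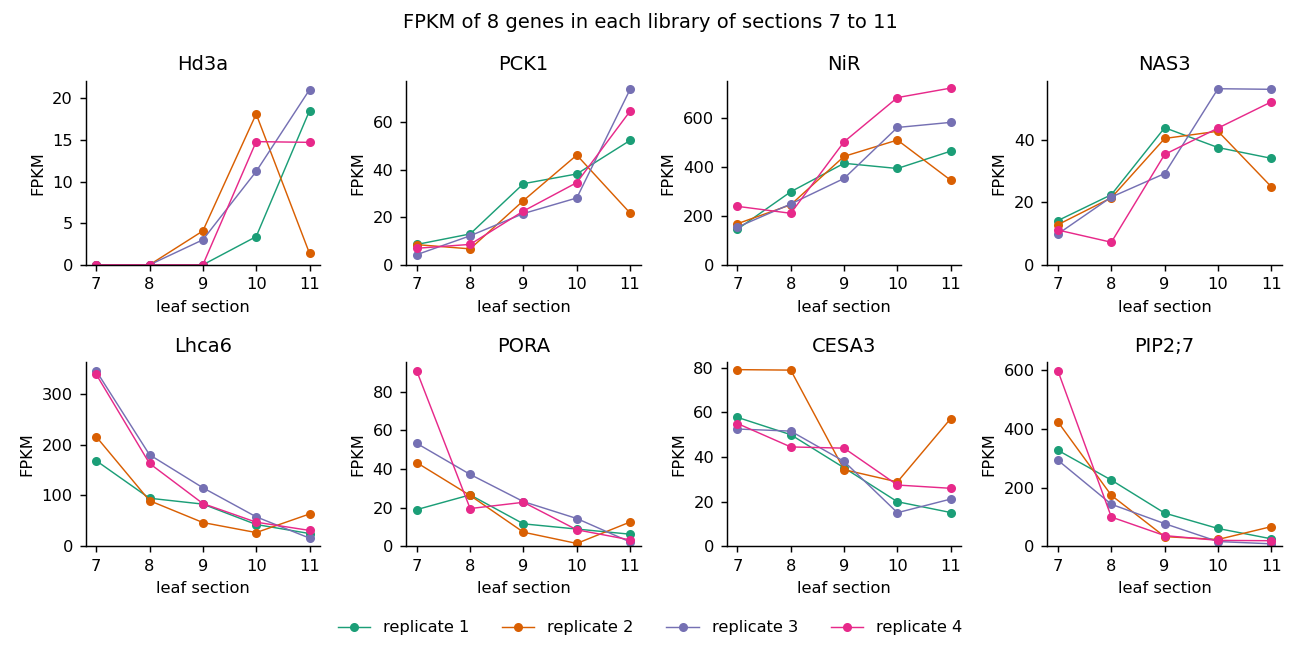
FPKM (vertical, from 0) of 8 genes in each of the 20 libraries of sections 7 to 11 (horizontal), with lines joining the sections of 1 pool of plants. Hd3a, PCK1, NiR and NAS3 rose from section 8 to section 10 and Lhca6, PORA, CESA3 and PIP2;7 fell. In section 11 replicate 2 lies below the other pools in the upper row and above them in the lower row.

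Cellulose synthases of the primary wall, the wall that cells lay down while they grow, had a median of -1.11, the lowest of the lists with at least 3 tested members, and 4 of the 5 members fell. CESA3 stood at 50.0, 78.9, 51.6 and 44.5 FPKM in section 8 and 19.9, 28.8, 15.0 and 27.4 in section 10, a change of -1.27, SE 0.29 (limma adjusted p = 0.00731). CESA8 stood at 29.2, 49.6, 35.7 and 28.6 and then at 17.43, 18.0, 11.3 and 13.8 FPKM, a change of -1.17, SE 0.25 (limma adjusted p = 0.00339). For these 2 genes the sections did not overlap, and each call was lost in 1 of 13 settings. CESA1 averaged 37.7 ± 12.8 FPKM in section 8 and 16.8 ± 2.74 in section 10, a change of -1.08, SE 0.28 (limma adjusted p = 0.0175). CESA6 averaged 11.4 ± 3.15 and 4.65 ± 0.677 FPKM, a change of -1.11, SE 0.28 (limma adjusted p = 0.0156). Their calls were lost in 4 and 5 settings. The fifth member, CESA5, averaged 7.06 ± 3.25 and 3.68 ± 2.40 FPKM and did not pass (limma adjusted p = 0.19). All 5 were far higher in section 1, where CESA1 averaged 271 ± 47.3 FPKM and CESA3 170.4 ± 65.2.

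Secondary walls strengthen the cells that carry water and support the blade. Of their 3 cellulose synthases, all tested, 1 fell. CESA4 stood at 5.04, 9.34, 5.21 and 4.40 FPKM in section 8 and 2.33, 1.78, 0.827 and 5.03 in section 10. Its libraries overlapped between the sections and replicate 4 was higher in section 10 than in section 8, while the change was -1.09, SE 0.31 (limma adjusted p = 0.0301), lost in 4 of 12 settings. CESA7 averaged 2.77 ± 1.84 and 1.58 ± 0.3001 FPKM and CESA9 3.19 ± 0.756 and 1.84 ± 0.448, and neither passed (limma adjusted p = 0.569 and 0.287). As markers of lignifying vascular tissue these 3 genes summed to 7.69 to 17.68 FPKM in section 8 and 3.99 to 9.05 in section 10, and to 159 to 261 in section 1.

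Lignin stiffens those walls, and its pathway had 6 genes that fell and none that rose among 17 tested of 22, with a median of -0.86. With quantile normalization or upper quartile scaling 3 fell. PAL1 and PAL2 encode phenylalanine ammonia-lyase, the entry to the pathway. PAL1 stood at 123, 103, 38.0 and 32.5 FPKM in section 8 and 29.0, 23.9, 14.2 and 22.6 in section 10, a change of -1.49, SE 0.46 (limma adjusted p = 0.0466), and PAL2 changed by -1.14, SE 0.34 (limma adjusted p = 0.0409). In PAL2 the highest section 10 library, replicate 1 at 37.0 FPKM, lay above the lowest of section 8, replicate 4 at 29.7. Reads that these similar genes share leave the split between them uncertain. 4CL3, a 4-coumarate ligase of the next steps, stood at 50.3, 39.8, 38.7 and 29.0 and then at 24.9, 17.2, 13.2 and 14.6 FPKM, without overlap, a change of -1.15, SE 0.30 (limma adjusted p = 0.0187). CCR20, a cinnamoyl reductase specific to lignin, stood at 13.6, 11.8, 8.25 and 4.78 and then at 4.23, 2.51, 2.096 and 4.69 FPKM, also without overlap, a change of -1.24, SE 0.37 (limma adjusted p = 0.0419). The calls of PAL1, PAL2, 4CL3 and CCR20 were lost in 8, 9, 3 and 6 of 13 settings. 4CL4, another 4-coumarate ligase, also fell, at -0.92, SE 0.27 (limma adjusted p = 0.0389). CCR19, the most abundant member, averaged 144 ± 36.3 and 117 ± 27.5 FPKM and did not pass (limma adjusted p = 0.588). The vascular marker sum given with the secondary wall genes moved in the same direction as this list, and its part in the result was not tested.

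**Figure D4:**
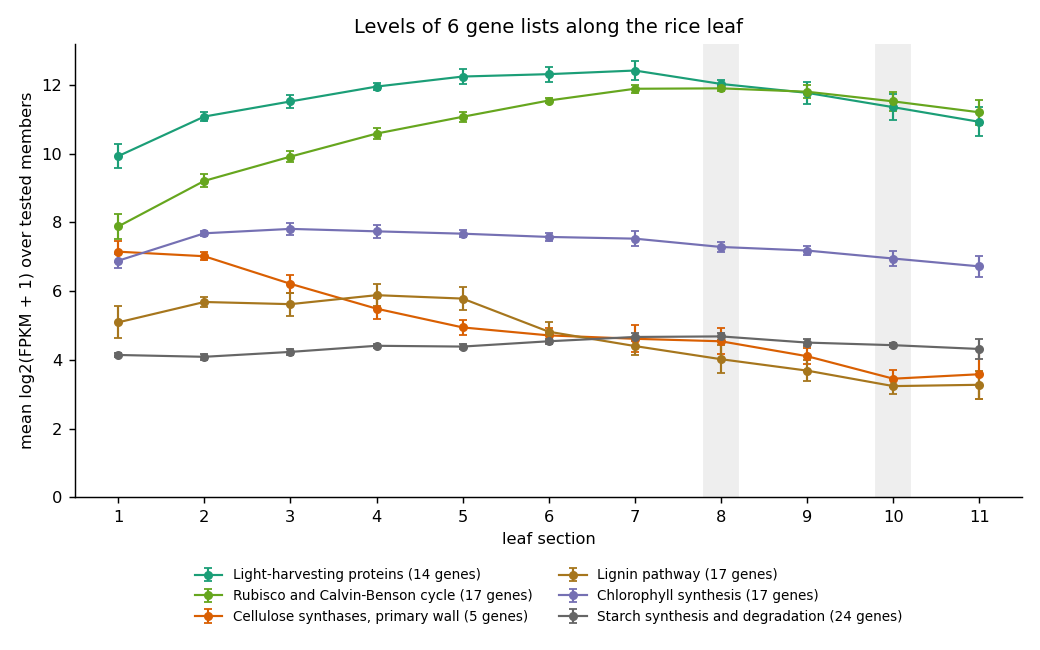
Mean log2(FPKM + 1) over the tested members of 6 lists (vertical, from 0) in sections 1 to 11 (horizontal), as mean and SD of 4 libraries per section, with sections 8 and 10 shaded. The lines for primary wall cellulose synthases and for lignin stand at 4.54 and 4.02 in section 8 and at 3.45 and 3.23 in section 10, and that for light-harvesting proteins at 12.03 and 11.35, all without quantile normalization.

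Of the epidermal wax genes none passed by limma among 4 tested of 7, and 2 had an unadjusted p under 0.05, beside 19.0% of all tested genes. GL1-1, a wax synthesis gene, averaged 11.9 ± 3.33 FPKM in section 8 and 10.3 ± 4.72 in section 10 (limma adjusted p = 0.785). GL1-2 of the same family was measured at 2.52, 0.499, 2.09 and 4.53 FPKM in section 8 and 1.60, 0, 0 and 0 in section 10, and did not pass (limma adjusted p = 0.0723), but passed with the pool as a block (limma adjusted p = 0.0458) and not with the block on the 8 libraries alone (limma adjusted p = 0.23). All 7 wax genes together summed to 18.6 to 35.5 FPKM in section 8 and 10.0 to 21.3 in section 10.

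Of the genes that move water, 1 of 13 tested aquaporins (15 listed) fell. PIP2;7, a water channel of the plasma membrane, stood at 226, 174, 143 and 99.7 FPKM in section 8 and 60.7, 23.23, 16.2 and 20.2 in section 10. Replicate 1 was the highest pool in both sections, the sections did not overlap, and the change was -2.51, SE 0.60 (limma adjusted p = 0.0094), lost in 3 of 13 settings. In section 7 it was at 327, 424, 293 and 597 FPKM and in section 1 at 1.72 ± 1.96. PIP1;1, the most abundant channel of the list, averaged 993 ± 105 and 1159.5 ± 271 FPKM and did not pass (limma adjusted p = 0.668).

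Iron genes included 1 that rose among 6 tested of 11. NAS3, a nicotianamine synthase, whose product binds iron and zinc for transport in the phloem, stood at 22.4, 21.4, 21.7 and 7.22 FPKM in section 8 and 37.5, 42.7, 56.3 and 43.7 in section 10. Section 8 replicate 4 was low, all section 10 libraries were higher than all of section 8, and the change was 1.36, SE 0.29 (limma adjusted p = 0.00334), lost in 3 of 13 settings. FER1 and FER2, near-identical genes for the iron store ferritin, averaged 156 ± 30.1 and 177 ± 54.3 FPKM in section 8 and 275 ± 74.2 and 329 ± 198 in section 10. Neither passed (limma adjusted p = 0.113 and 0.232), and the division of reads between them is uncertain. The root marker sum given above was also higher in section 10, and its part in the iron results was not tested.

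The list of abscisic acid and dehydration genes had 1 that rose and 1 that fell among 16 tested of 22. ABA8ox2, which breaks down this stress hormone, stood at 1.03, 5.62, 4.27 and 5.16 FPKM in section 8 and 7.66, 14.6, 8.59 and 17.8 in section 10, without overlap, a change of 1.45, SE 0.39 (limma adjusted p = 0.0216) lost in 6 of 13 settings. SalT, a mannose-binding lectin known for its induction by salt, was at 10.1, 4.51, 4.72 and 1.52 FPKM in section 8 and listed at 0 in all 4 libraries of section 10 and of section 9. It passed in the fit (limma adjusted p = 0.00251) and in all 12 settings that tested it. LIP9, a dehydrin, averaged 43.3 ± 18.5 and 59.0 ± 37.0 FPKM and did not pass (limma adjusted p = 0.657).

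No member passed by limma in the lists for jasmonate (15 tested, median -0.39), heat shock (6, -0.77), WRKY factors (5, -0.60), NAC factors (4, -0.49), pathogenesis-related proteins (4, -0.08), ethylene synthesis (3, -0.50), antioxidant enzymes (4, -0.18), autophagy (5, -0.38), phosphate starvation (3, 0.02) or gibberellin (3, 0.40). At an unadjusted p under 0.05 stood 2 autophagy genes, 1 gene each of heat shock, ethylene, antioxidants, phosphate and gibberellin, and 0 of the jasmonate, WRKY, NAC and pathogenesis-related lists, beside 19.0% of all tested genes. The pools differed widely in some of these genes. WRKY53, a factor of wound and defence responses, stood at 36.4, 18.5, 2.85 and 36.9 FPKM in section 8 and 29.2, 5.54, 7.23 and 13.4 in section 10 (limma adjusted p = 0.759). HSP17.4, a small heat shock protein, stood at 82.7, 42.8, 73.2 and 15.7 and 29.2, 37.1, 86.1 and 6.61 FPKM (limma adjusted p = 0.594), with replicate 4 the lowest of both sections. SNAC1, a NAC factor of stomatal and drought responses, averaged 114 ± 47.4 and 67.6 ± 14.9 FPKM (limma adjusted p = 0.536). None of the 11 genes of diterpenoid phytoalexins or of the 4 SCARECROW and SHORT-ROOT genes reached the mean of 1 FPKM needed for a test.

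Since sections 8 and 10 of a replicate came from the same plants, each list was also read with the pool of plants as a block. A further 18 list members passed, 3 of them higher and 15 lower in section 10, and no call was lost. With the block on the 8 libraries of the comparison alone 1 of the 18 passed, GI (limma adjusted p = 0.0436), and 17 did not. Light-harvesting proteins then had 5 that fell, with Lhcb3 and Lhcb6, antenna proteins of photosystem II, added (limma adjusted p = 0.04 and 0.0431). Photosystem and electron transport genes had 5 as well, with PsaD, which docks ferredoxin, and PC, the electron carrier plastocyanin, added (limma adjusted p = 0.0465 and 0.0493). In photorespiration the glycine decarboxylase T-protein GLDT was added (limma adjusted p = 0.0277), and in nitrogen assimilation the cytosolic glutamine synthetase GS1;1 beside GS2 (limma adjusted p = 0.0266).

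The block also added iron and stress genes. IRO2, a transcription factor of the iron deficiency response, stood at 1.29, 165, 20.7 and 50.5 FPKM in section 8 and 4.10, 35.4, 1.70 and 4.88 in section 10, and VIT2, a carrier that stores iron in vacuoles, at 16.1, 13.9, 22.8 and 11.0 and 10.6, 0.631, 7.91 and 2.53 FPKM (limma adjusted p with the block = 0.0299 and 0.0173, without it 0.469 and 0.0723). The libraries of IRO2 overlapped widely, replicate 2 was the highest pool in both sections, and replicate 1 was higher in section 10. VIT2 did not overlap between the sections. The heat shock factor gene HSFA2c and the lyase gene PAL4 were lower in section 10 (limma adjusted p with the block = 0.0186 and 0.0492). SPS6, a sucrose phosphate synthase, and ABA8ox3, a second hydroxylase of abscisic acid, were higher (limma adjusted p with the block = 0.0372 and 0.0471).

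Outside the lists, the 2 largest changes in each direction, taken from called genes that averaged 5 FPKM or more and moved alike in all 4 pools, belonged to genes without a name in the files. LOC_Os12g33150 was measured at 20.4, 0, 0 and 10.2 FPKM in section 8 and 86.5, 430.0, 250.2 and 85.8 in section 10, a change of 5.43, SE 0.83 (limma adjusted p = 9.45e-05). LOC_Os06g44190 was listed at 0 in all section 8 libraries and stood at 19.9, 59.1, 148 and 47.4 FPKM in section 10 (limma adjusted p = 0.000482). LOC_Os03g59210 stood at 311, 115, 481 and 194 and then at 41.1, 0, 34.0 and 32.6 FPKM, a change of -4.02, SE 1.01 (limma adjusted p = 0.0141). LOC_Os12g38660 was at 27.9, 28.0, 67.9 and 104 and then at 10.0, 0, 16.5 and 0 FPKM, a change of -3.73, SE 0.94 (limma adjusted p = 0.014). The sections did not overlap in any of these 4, which partly follows from picking the largest changes in the same libraries. The spread within section 10 was wide in both genes that rose.

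Sections 7, 9 and 11, which lie outside the comparison, followed the same order for most of these genes. Their libraries came from the same pools of plants and helped to set the spread in the fit. The order is therefore not independent of the calls. The section means increased from 7 to 9 to 11 for 218 of the 290 genes that rose (75.2%), beside 24.2% of all tested genes. They decreased in the same order for 441 of the 516 genes that fell (85.5%), beside 24.7%. The opposite order was seen in 2 genes of each group. Without replicate 2, a setting chosen after the data were seen, the order was read on mean FPKM without the log. The counts were then 226 of 290 (77.9%) beside 23.4% of all, and 441 of 516 (85.5%) beside 25.3%. Scale and libraries both differ between these counts and those above.

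Section 11 against section 9, a step of the same length, gave fewer calls. It shared no library with the step from section 8 to section 10, but it came from the same pools of plants. In the fit to all libraries 9 genes rose (0.0581%) and 18 fell (0.116%), of which 3 and 12 were also called from section 8 to section 10. Without replicate 2 in sections 9 and 11, 2 of the libraries that resembled another section more than their own, 185 rose (1.19%) and 448 fell (2.89%). This setting was chosen after the data were seen, and the libraries of sections 8 and 10 that resembled another section were kept. The 2 libraries left out were picked for their likeness to other sections over the tested genes. The higher counts therefore partly follow from that choice. Shared in direction were then 28 genes that rose (9.66% of the 290 and 15.1% of the 185) and 191 that fell (37.0% of the 516 and 42.6% of the 448), and no gene was called in opposite directions. Over the genes called from section 8 to 10, the median change from section 9 to 11 without those libraries was 0.49 for those that rose and -0.90 for those that fell, where all tested genes had a median near 0. Whether those 2 libraries were exchanged or misplaced was not tested, and the section 9 and 11 values of replicate 2 printed here, Hd3a included, are as labelled.

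Named genes are given for that step too, and the values without those 2 libraries partly follow from the choice to leave them out. Without those 2 libraries Hd3a changed by 3.57 from section 9 to section 11 (limma adjusted p = 2.46e-07), PCK1 by 1.27 (limma adjusted p = 0.00788), Lhca6 by -1.95 (limma adjusted p = 6.42e-05) and RbcS2 by -1.76 (limma adjusted p = 0.000579). The log2 change was 0.47 for NiR (limma adjusted p = 0.415), 0.37 for Cga1 (limma adjusted p = 0.685) and 0.37 for NAS3 (limma adjusted p = 0.642), and these 3 did not pass. With all libraries the same changes were 2.41 for Hd3a (limma adjusted p = 0.031), 0.88 for PCK1 (limma adjusted p = 0.184), -1.35 for Lhca6 (limma adjusted p = 0.0415) and -1.17 for RbcS2 (limma adjusted p = 0.0981). For NiR, mean FPKM went from 177 ± 42.6 in section 7 through 251 ± 36.2, 428 ± 62.2 and 537 ± 120.1 to 528 ± 161 in section 11 (SD, n = 4), and sections 10 and 11 did not differ beyond their spread. For CESA3 the means over the same sections were 61.1 ± 12.2, 56.2 ± 15.4, 37.9 ± 4.36, 22.8 ± 6.48 and 29.9 ± 18.8.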

How the data were processed

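Polyadenylated RNA was extracted with TRIzol and made into strand-specific libraries, per the labels' protocols. The authors deposited FPKM values, made with TopHat2 2.0.10 and Cuffdiff 2.1.1 per the submitters' processing notes. Neither the rice build nor the treatment of fragments that map to near-identical copies is given in the sources used here. All 44 rice columns were mapped to labelled samples, with 0 left over. No read totals are given, so absolute depth is unknown.

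Genes with a mean of at least 1 FPKM over the 8 libraries were tested on log2(FPKM + 1), pseudocount 1. On that scale a fold change is understated for low genes. The test was limma 3.58.1 (R 4.3.3) with a mean-variance trend over all 44 libraries, and the fit was checked on simulated data. Simulated libraries were independent, with the same spread in every section and no pool effect, so the check does not cover those features. Replicate numbers mark pools of plants shared by all sections; deviations from section means correlated at 0.064 to 0.134 between sections 8 and 10 of the same number, against a median of -0.04 for others. The main fit had no block, so sections cut from the same pool entered it as independent libraries. Its p-values rest on the spread between libraries within sections, averaged over all 44 libraries, and not on sections 8 and 10 alone. Fewer genes passed with only the 8 libraries of the comparison.

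Members and lists were chosen with earlier results of these data known. Per list, up to 4 members that passed with the largest change and the tested member with the highest mean were named, and beyond the lists 2 identifiers in each direction with a mean of at least 5 FPKM. No table paired rice identifiers with names, and list names were not checked against an annotation. Maize libraries were not used here, and the results of 2 list members are not reported here. Alternatives tried were the 8 libraries alone, the pool as a block, a pseudocount of 0.1, other filters, quantile and upper quartile scaling, and leaving out each replicate.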

Additional observations from a re-analysis of the deposited data

Results flagged for a closer look

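Among the 74 named genes, each with 4 libraries in section 8 and 4 in section 10, 7 of 148 groups held a library far from the other 3. Chance flags about 1 in 20 groups, so a number of this size carries no weight of its own. In section 8, SIG1 stood at 282 FPKM in replicate 3, against 224 to 232 in the others. CRY2 stood at 31.3 FPKM in section 8 replicate 2, against 42.6 to 44.2. CESA4 stood at 9.34 FPKM in section 8 replicate 2, against 4.40 to 5.21. Lsi6, a silicon channel gene, stood at 33.8 FPKM in section 8 replicate 4, against 51.7 to 53.2, and NAS3 at 7.22 FPKM in that library, against 21.4 to 22.4. In section 10 replicate 1, PAL2 stood at 37.0 FPKM, against 18.0 to 19.5 in the others, and PIP2;7 at 60.7 FPKM, against 16.2 to 23.23. The part of single libraries in these values was not tested.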

How the results depend on the processing

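In no setting was a gene called in the direction opposite to that in the report. The replicate block, in which the pool of plants enters the fit, gave 446 genes that rose, kept all 290 and all 516, and lost none of the 44 named calls. With only the 8 libraries 96 genes rose and 172 fell, and with the replicate block on these 8 libraries 99 rose and 186 fell; by at least 1 on the log2 scale 81 rose and 155 fell, and with the block 80 and 163. With a mean of at least 5 FPKM, which tests fewer genes, 129 rose and 245 fell by at least 1. Leaving out each replicate in turn gave 95 to 226 genes that rose and 190 to 416 that fell, and by at least 1 on the log2 scale 80 to 185 and 167 to 342, with the lowest counts without replicate 4 or 2. The cause was not tested.

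Of the 44 named calls, 5 passed in every setting that tested them and 39 were lost in at least 1, among them 31 with only the 8 libraries and 31 without replicate 2. Quantile normalization set RbcS2 to 0, since it fixes the highest gene, and 12 other named calls were lost with it, with RbcS3, cpPGK, PsaH, PsaF and GLDH1 shrinking by over 1.5 times. It turned the medians of the C4 relatives and the clock list from -0.03 to 0.04 and 0.03.

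For section 11 against 9, 1 gene rose and 0 fell with only those 8 libraries, 43 and 107 with the replicate block, and 0 and 0 with the block on the 8 libraries. Without a filter 20 rose, with a pseudocount of 0.1 35 fell, with a mean of at least 5 FPKM 31 fell, and with quantile normalization 11 fell. Leaving out each replicate gave 0 to 124 that rose and 0 to 331 that fell, with the highest counts without replicate 2. The settings that called 0 genes in both directions had by limma 499 to 560 genes higher and 604 to 726 lower at an unadjusted p under 0.05, against 747 and 1015 in the fit to all libraries. Without only the replicate 2 libraries of sections 9 and 11, 185 rose and 448 fell.

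FPKM values give no counts, so no floor can be set for genes listed at 0.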
